A study of Rattus norvegicus with 13 samples.

Results

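The genes described are 35 members of the unfolded protein response and of the amino acid stress response, chosen by gene symbol. All 35 were measured, among 14217 genes on the array, and where several probe sets named a gene the brightest over the 13 arrays stood for it. The members were divided by known role into 14 protein folding genes, 4 genes of regulation and degradation, and 17 genes of the Atf4 type, meaning the transcription factor Atf4 with its partners and known targets. Values are log2 expression, so that a difference of 1 is a doubling.

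The series set whole rat bile duct cancers beside cell lines derived from them, to see how far the lines alone and together resemble the tumour. Tumours grew after BDEsp cells, bile duct cells (BDE1) that had become malignant without added treatment, were placed in the bile duct of Fischer 344 rats. The groups were 4 snap-frozen intrahepatic cholangiocarcinomas from young adult males, 1 array labelled as epithelial cells in co-culture, 3 of the epithelial cancer line alone, 1 labelled as fibroblastic cells in co-culture, and 4 of the fibroblastic line alone. Both lines have the same Fischer 344 background, carry no labelled genetic change or drug, and were cultured in a matrix of type I collagen from rat tails. The epithelial line is clone H10 and the fibroblastic line, which carries smooth muscle actin of the alpha type, is clone E4, so each cell type is represented by a single clone. The labels give a range of fibroblast plating densities but not the density behind each co-culture array. They do not say whether replicate arrays came from separate cultures, so the p-values measure the spread between these arrays, which may be technical.

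Proteins that enter the endoplasmic reticulum are folded there by chaperones such as BiP, the product of Hspa5. When unfolded protein builds up, the sensors Ire1, Perk and Atf6 raise chaperones and degradation genes, largely through spliced Xbp1 and cleaved Atf6. Perk, and Gcn2 when amino acids run short, phosphorylate the translation factor eIF2-alpha, which favours translation of Atf4. Atf4 in turn drives genes for amino acid synthesis, uptake and tRNA charging, and with lasting stress the factor Ddit3. Xbp1 and Atf4 are controlled largely at splicing and translation, which these arrays did not measure.

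Marker genes matched the labels of the lines grown alone. The mean of 5 epithelial markers, keratins 8, 18 and 19 with Epcam and Cdh1, was 13.08 to 13.40 in the epithelial arrays, against 4.32 to 4.57 in the fibroblastic arrays. The mean of 6 fibroblastic markers, among them collagen genes and Acta2, was 5.83 to 6.10 in the epithelial arrays, against 13.11 to 13.70 in the fibroblastic arrays. Both co-culture arrays carried both sets, at 12.72 and 11.83 in the array labelled epithelial and 12.68 and 12.02 in the array labelled fibroblastic. Tumours carried both as well, with macrophage markers at 10.69 to 11.03. T and NK cell markers were at 7.19 to 7.79 against 4.43 to 4.98 in the lines alone. Endothelial markers were at 6.54 to 7.60 against 4.48 to 5.13. The mean of 6 B and plasma cell markers was 6.6 in tumours, against 5.96 in the epithelial and 5.4 in the fibroblastic arrays. Of these 6, limma called 3 higher in tumours than in the epithelial line and 5 higher than in the fibroblastic line. Over all genes 18.9% and 27.3% were called higher in these comparisons. Jchain, at a mean of 6.93 against 4.87 and 4.65, had the largest difference of the 6 from the epithelial line. Sdc1 had the largest from the fibroblastic line, at a mean of 11.7 against 9.2, but was also at 11.7 in the epithelial line. Hepatocyte markers were at 13.72, 5.69, 12.31 and 13.73 in tumours 1 to 4. The part of these cell types in the tumour results was not tested. In such bulk samples fewer cells of a type and less RNA per cell cannot be told apart. A measure of RNA integrity, the 3′ minus 5′ signal of the actin control, was 0.61 to 0.75 in tumours, 0.86 to 1.47 in the epithelial line, and 1.72, 2.65, 1.05 and 2.01 in fibroblastic arrays 1 to 4. The same measure for the Gapdh control differed less, lying between -0.14 and 0.27 over all 13 arrays. It was 0.15, 0.27, -0.04 and 0.15 in fibroblastic arrays 1 to 4.

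Against the epithelial line, the folding and Atf4-type genes of the tumours ran mostly in opposite directions. In tumours, 8 of the 14 folding genes and 3 of the 4 regulation and degradation genes were higher and none was lower. Of the 17 Atf4-type genes, 2 were higher and 7 lower. Over all 35 members this made 13 higher and 7 lower, where 18.9% of all genes were called higher and 33.2% lower. The median difference was 0.56 for folding, 0.93 for regulation and degradation, and -0.90 for the Atf4-type genes, against -0.17 over all genes.

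Relative to the fibroblastic line, 5 folding genes were higher in tumours and 1 lower, 1 gene of regulation was higher and 1 lower, and 9 Atf4-type genes were lower with none higher. This made 6 members higher and 11 lower, where 27.3% of all genes were called higher and 33.5% lower. The class medians were 0.10, 0.34 and -1.12, against -0.07 over all genes. The comparisons with each line share the tumour arrays and are given side by side. A call was an adjusted p under 0.05 in limma, with Benjamini-Hochberg adjustment across every gene measured. Centring each array on its median shifted every tumour difference up by 0.20 against the epithelial line and by 0.19 against the fibroblastic line. The share of calls that were higher then moved to 52.2% against 36.2% as deposited in the first comparison, and to 57.1% against 44.9% in the second, and no call of a member reversed. Members called higher against the fibroblastic line then numbered 10, with Herpud1, Shmt2, Slc7a11 and Gdf15 added at adjusted p between 0.0218 and 0.0434, and Edem1 was no longer called lower (adjusted p 0.0559). With tumour 2, the one with little hepatocyte signal, as the only tumour, 5 members were called higher and 1 lower against the epithelial line, and no called member changed sign.

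**Figure D1:**
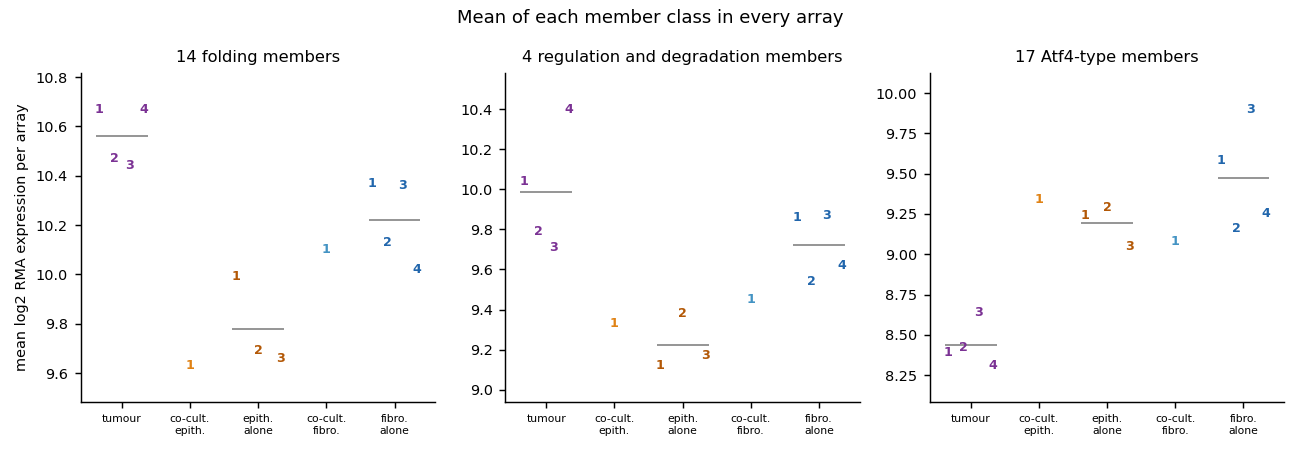
Mean log2 expression of the 14 folding, 4 regulation and degradation, and 17 Atf4-type members in each of the 13 arrays. Numerals are replicate numbers placed at their values and grey lines are group means; folding means were 10.44 to 10.67 in tumours, above every other array, and Atf4-type means were 8.31 to 8.64 in tumours, below every other array.

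Array by array the folding mean was 10.67, 10.47, 10.44 and 10.67 in tumours, against 9.99, 9.69 and 9.66 in the epithelial line and 10.37, 10.13, 10.36 and 10.02 in the fibroblastic line. The Atf4-type mean was 8.39, 8.42, 8.64 and 8.31 in tumours, against 9.24, 9.29 and 9.05 in the epithelial line and 9.58, 9.16, 9.90 and 9.25 in the fibroblastic line. Tumours did not overlap either line in either mean. Tumours 1 and 4, with hepatocyte markers at 13.72 and 13.73, had the highest folding means and the lowest Atf4-type means of the tumours. Tumours 2 and 3, with these markers at 5.69 and 12.31, had lower folding means and higher Atf4-type means. The part of hepatocytes in these means was not tested. Of the 14 folding genes, 9 had their highest group mean in tumours, none in the epithelial line and 5 in the fibroblastic line. Of the Atf4-type genes, 1 was highest in tumours, 9 in the epithelial line and 7 in the fibroblastic line, while over all genes the shares were 28.1%, 39.8% and 32.1%.

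Hspa5 encodes BiP, the main Hsp70 chaperone of the endoplasmic reticulum and the best known target of the response. Its values were 12.23, 12.18, 12.17 and 12.43 in tumours, against 10.78, 10.63 and 10.58 in the epithelial line and 11.47, 11.35, 11.41 and 11.14 in the fibroblastic line. The 3 groups formed separate steps with no overlap. Tumours were 3.01-fold above the epithelial line (log2 difference 1.59 ± 0.12 SE, limma adjusted p 4.83e-06) and 1.88-fold above the fibroblastic line (0.91 ± 0.11, adjusted p 5.87e-05). With tumour 2 as the only tumour the differences were 1.52 and 0.84, and both remained called.

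The promoter of Hspa5 is shown because it holds the classical element through which chaperone genes respond to endoplasmic reticulum stress. In the RefSeq annotation of rat build GRCr8, the 250 bases before its start lie at chr3:38452766-38453015 on the plus strand, and capitals mark the element.

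Hspa5: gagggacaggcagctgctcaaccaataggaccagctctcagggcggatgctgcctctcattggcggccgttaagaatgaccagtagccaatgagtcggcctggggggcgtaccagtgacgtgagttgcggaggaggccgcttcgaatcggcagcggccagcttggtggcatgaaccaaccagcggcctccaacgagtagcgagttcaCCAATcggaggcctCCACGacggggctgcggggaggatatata

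The endoplasmic reticulum stress element, ERSE, was searched on both strands as CCAAT, a gap of 9 bases and CCACG. A related form, ERSE-II, was searched as ATTGG, a gap of 1 base and CCACG. Promoter windows of 250 bases before and 50 after the start were used for 30 of the 35 members; those of Canx, Pdia3, Pdia6, Manf and Atf3 were not used here. Of 10 folding promoters, 7 held either form, as did 2 of the 4 promoters of regulation and degradation genes and 0 of 16 Atf4-type promoters. Over 27456 genes with a promoter the share was 0.135%. The ERSE matches of other members are set out with capitals on the 5-base ends and 8 bases kept on each side. Their shared gap of 9 bases was set by the search and is not a finding. Matches that run against the gene are printed as they stand on its strand, so that their ends read CGTGG and ATTGG.

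Calr: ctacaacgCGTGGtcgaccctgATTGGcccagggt
Creld2: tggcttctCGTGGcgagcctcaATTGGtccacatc
Dnajc3: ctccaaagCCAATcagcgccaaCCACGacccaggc
Hsp90b1, distal: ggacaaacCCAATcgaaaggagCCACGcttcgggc
Hsp90b1, proximal: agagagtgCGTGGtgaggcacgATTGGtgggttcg
Xbp1: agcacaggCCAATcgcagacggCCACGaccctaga

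In build GRCr8 these stretches lie at chr19:40213127-40213161 for Calr, chr7:121789231-121789265 for Creld2 and chr15:102432526-102432560 for Dnajc3. The Hsp90b1 stretches lie at chr7:23012443-23012477 and chr7:23012339-23012373, and that of Xbp1 at chr14:84604550-84604584. Hsp90b1 lies on the minus strand and the others on the plus strand. A match of letters is a description and not a bound site. In tumours against the epithelial line the 6 genes with an ERSE among the promoters used had a positive difference, from 0.31 for Creld2, which was not called, to 1.67 for Calr. The difference was positive for 13 of the 14 folding genes, with or without an ERSE, so it does not set the ERSE genes apart. The exception was Hyou1, at -0.24, whose promoter held ERSE-II matches. Against the fibroblastic line the ERSE gene Dnajc3 had a negative difference, -0.31, which was not called.

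**Figure D2:**
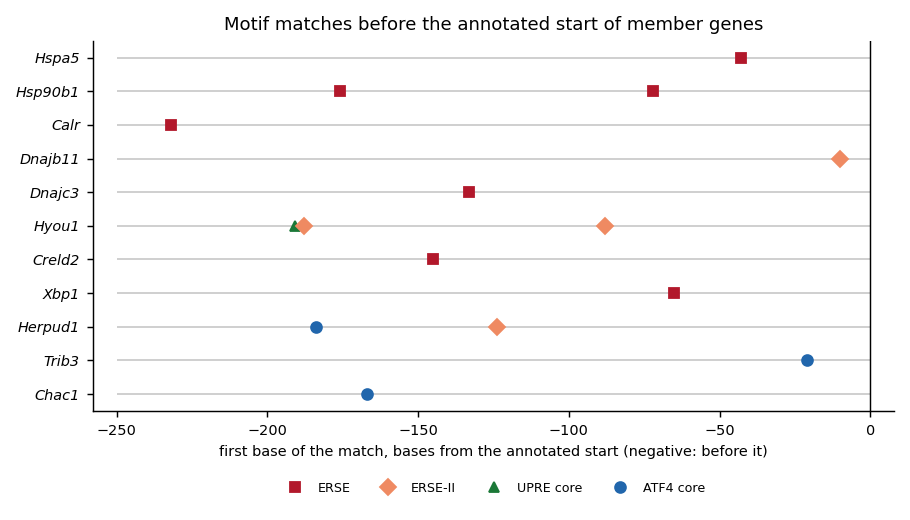
Position of motif matches in the 250 bases before the annotated start of the 11 members with any match; the horizontal axis is distance from the start in bases and each symbol is the first base of a match. ERSE and ERSE-II matches lie in 9 folding or regulation and degradation promoters and in no Atf4-type promoter.

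Calr and Canx are lectin chaperones that hold newly made glycoproteins, Calr in the lumen and Canx in the membrane. Calr had 11.75, 11.41, 11.43 and 11.47 in tumours, against 10.12, 9.95 and 9.47 in the epithelial line and 10.63, 10.36, 10.38 and 10.30 in the fibroblastic line. All tumours lay above all arrays of both lines, by 3.19-fold over the epithelial line (1.67 ± 0.17, adjusted p 3.29e-05) and 2.14-fold over the fibroblastic line (1.10 ± 0.16, adjusted p 0.000152). Canx was 11.23 to 11.39 in tumours, against 10.77 to 11.16 in epithelial arrays and 10.73 to 11.24 in fibroblastic arrays, and 1 fibroblastic array overlapped the tumours. Its difference was not called against the epithelial line (0.37, adjusted p 0.056) and was just called against the fibroblastic line (0.34, adjusted p 0.0492). Leaving out any of 9 of the 11 arrays ended the second call, with adjusted p up to 0.127, and without fibroblastic replicate 2 or 3 or epithelial replicate 3 the first was called, at adjusted p down to 0.025. The 3 probe sets of Canx differed in sign between the lines.

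Pdia3, Pdia4 and Pdia6 are protein disulfide isomerases, which form and rearrange disulfide bonds. Pdia3 had 11.58, 11.46, 11.33 and 11.62 in tumours, against 9.71, 10.40 and 9.50 in the epithelial line and 9.88, 9.89, 9.95 and 9.50 in the fibroblastic line. The tumours stood clear of both lines, by 3.08-fold (1.62 ± 0.21, adjusted p 0.000143) and 3.22-fold (1.69 ± 0.19, adjusted p 2.98e-05). Pdia6 was 11.56 to 11.85 in tumours, against 10.90 to 11.39 in the epithelial line, and was called higher there (0.53 ± 0.15, adjusted p 0.0134); without epithelial replicate 2 the adjusted p was 0.0564. Against the fibroblastic line, at 11.50 to 11.83, it was not called. Pdia4 ranged from 10.70 to 11.30 in tumours, from 10.68 to 11.26 in epithelial arrays and from 11.07 to 11.29 in fibroblastic arrays, and was called in neither comparison.

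Sdf2l1, a component of chaperone complexes, was 10.16, 10.20, 9.90 and 10.15 in tumours, against 9.02, 8.32 and 8.46 in the epithelial line and 8.88, 7.82, 8.76 and 7.90 in the fibroblastic line. Every tumour exceeded every culture. The tumour level was 2.84-fold that of the epithelial line (adjusted p 0.00134) and 3.39-fold that of the fibroblastic line (adjusted p 0.000189). Hsp90b1, the Hsp90 chaperone of the endoplasmic reticulum, was 12.50, 12.33, 12.38 and 12.53 in tumours, against 12.11, 11.69 and 11.71 in the epithelial line and 12.29, 12.38, 12.47 and 12.46 in the fibroblastic line. It was 1.52-fold higher in tumours than in the epithelial line (adjusted p 0.00324) and was not called against the fibroblastic line (0.03 ± 0.12, interval -0.23 to 0.30), where tumours 1 and 4 lay just above the highest array.

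The J-domain proteins Dnajb9, Dnajb11 and Dnajc3 are partners of BiP. Dnajb9 was 9.28 to 10.28 in tumours, against 8.25 to 8.95 in the epithelial line, and was 2.23-fold higher (adjusted p 0.00928). Dnajc3 was 8.98 to 10.09 in tumours, against 7.97 to 8.71 in the epithelial line, and was 2.04-fold higher (adjusted p 0.035; up to 0.13 and no longer called when tumour 1, tumour 4, epithelial replicate 1 or epithelial replicate 3 was left out). Neither was called against the fibroblastic line, where Dnajb9 was 8.89 to 9.78 and Dnajc3 9.15 to 10.30.

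Dnajb11 ran the other way against the fibroblastic line. It was 9.47, 9.24, 9.15 and 9.30 in tumours, against 10.60, 9.74, 10.46 and 9.73 in the fibroblastic line, without overlap and 1.79-fold lower (adjusted p 0.0087). In the epithelial line it was 9.26, 8.70 and 8.59, and that difference was not called (0.44, adjusted p 0.153).

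The remaining folding genes showed no call in either comparison. Hyou1, an Hsp110-type exchange factor for BiP, was 6.71 to 6.98 in tumours, 6.91 to 7.39 in epithelial arrays and 6.56 to 7.54 in fibroblastic arrays. Creld2, a disulfide isomerase-like protein, was 9.36 to 9.50 in tumours, 8.70 to 9.69 in epithelial arrays and 9.23 to 9.55 in fibroblastic arrays. Manf, a secreted factor that binds BiP, was 11.20 to 11.39 in tumours, 10.86 to 11.51 in epithelial arrays and 11.03 to 11.64 in fibroblastic arrays. For Creld2 and Manf the tumours lay inside the spread of each line. Without epithelial replicate 1 Creld2 was called higher in tumours than in the epithelial line, at adjusted p 0.00717, and without fibroblastic replicate 4 Hyou1 was called lower than in the fibroblastic line, at adjusted p 0.025.

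**Figure D3:**
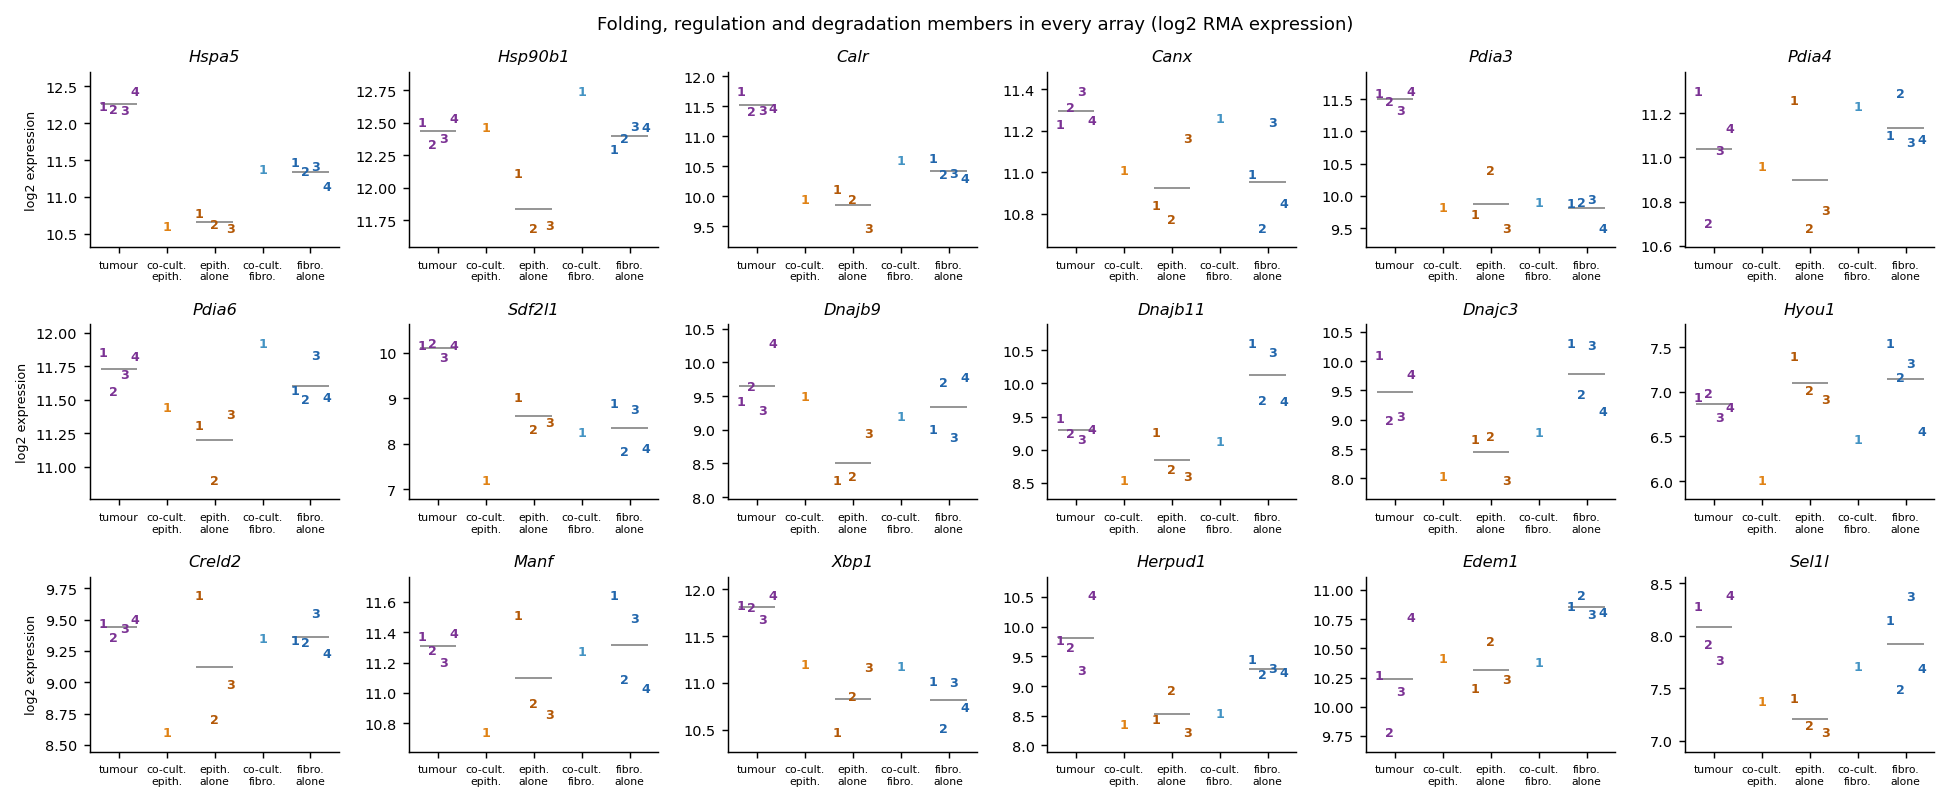
Log2 expression of the 14 folding and 4 regulation and degradation members in each array, each panel on its own vertical scale. Numerals are replicate numbers at their values and grey lines are group means; Hspa5, Calr, Pdia3, Sdf2l1 and Xbp1 show all 4 tumours above every culture, and Dnajb11 and Edem1 have their highest mean in the fibroblastic line.

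Xbp1, whose spliced form is a transcription factor of this arm, was 11.83, 11.80, 11.68 and 11.93 in tumours, against 10.47, 10.85 and 11.16 in the epithelial line and values between 10.51 and 11.01 in the fibroblastic line. The tumours lay above all arrays of both lines, by 1.97-fold (0.98 ± 0.18, adjusted p 0.00131) and 1.99-fold (0.99 ± 0.17, adjusted p 0.000489). Herpud1, a membrane protein of the degradation machinery, was 9.77, 9.65, 9.27 and 10.52 in tumours, against 8.44, 8.93 and 8.22 in the epithelial line and 9.44, 9.19, 9.30 and 9.23 in the fibroblastic line. It was 2.41-fold higher than in the epithelial line (adjusted p 0.00262), and tumour 3 fell inside the fibroblastic range, where the difference of 0.51 was not called (adjusted p 0.0937; 0.0313 without tumour 3).

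Herpud1 was the member, among the 30 whose promoters were used, that held both an ERSE-II and the core of an Atf4 site, searched as TGATGNAA on both strands. Its 250 bases before the start lie at chr19:10614708-10614957 on the minus strand of GRCr8, and capitals mark both elements, the Atf4 core first and running against the gene.

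Herpud1: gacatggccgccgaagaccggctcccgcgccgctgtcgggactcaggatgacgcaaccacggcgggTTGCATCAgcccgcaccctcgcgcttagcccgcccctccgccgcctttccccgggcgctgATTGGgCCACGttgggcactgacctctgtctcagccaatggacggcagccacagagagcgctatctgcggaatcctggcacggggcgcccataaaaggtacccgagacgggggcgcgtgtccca

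Sel1l, the scaffold of a ubiquitin ligase that removes misfolded proteins, was 8.28, 7.92, 7.76 and 8.38 in tumours, against 7.40, 7.15 and 7.08 in the epithelial line and 8.14, 7.49, 8.37 and 7.69 in the fibroblastic line. It was 1.83-fold higher in tumours than in the epithelial line (adjusted p 0.00904) and overlapped the fibroblastic line. Edem1, which directs misfolded glycoproteins to degradation, was 10.27, 9.78, 10.13 and 10.76 in tumours, against 10.16, 10.56 and 10.23 in the epithelial line and 10.86, 10.95, 10.79 and 10.81 in the fibroblastic line. It was 1.53-fold lower in tumours than in the fibroblastic line (adjusted p 0.0155), although the mean of its 3 probe sets gave 0.50 in the opposite direction.

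**Figure D4:**
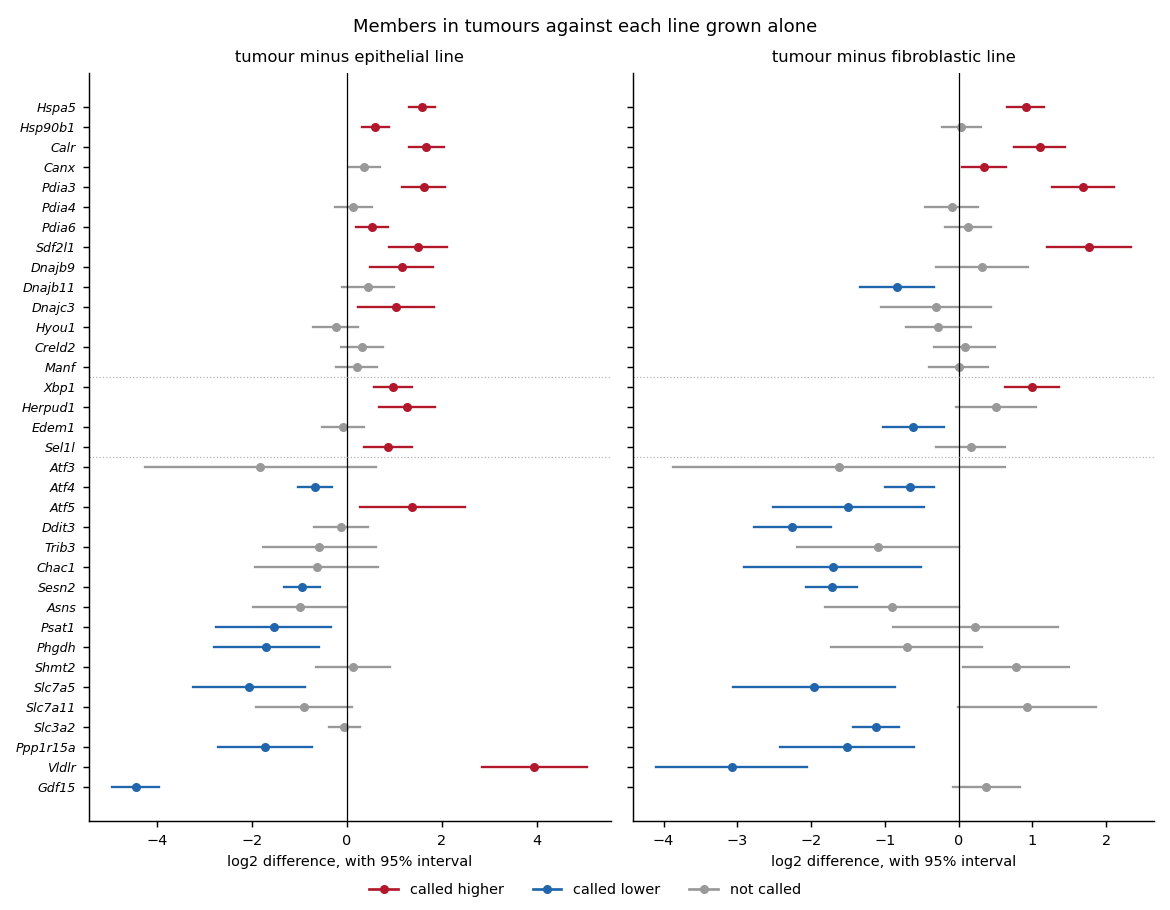
Log2 difference of each member in tumours minus the epithelial line (left) and tumours minus the fibroblastic line (right), with 95% intervals from limma; red and blue points were called higher and lower at adjusted p under 0.05, and dotted lines part the folding, the regulation and degradation, and the Atf4-type members. The 9 Atf4-type calls against the fibroblastic line are all lower, and Vldlr and Atf5 lie on opposite sides of 0 in the 2 panels.

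Atf4 itself was lower in tumours than in either line. Its values were 11.23, 11.72, 11.71 and 11.27 in tumours, against 12.28, 12.28 and 11.92 in the epithelial line and 12.04, 12.11, 12.13 and 12.31 in the fibroblastic line. No tumour reached any culture. The difference was 1.60-fold against the epithelial line (-0.68 ± 0.16, adjusted p 0.00595) and 1.58-fold against the fibroblastic line (-0.66 ± 0.15, adjusted p 0.00332). With tumour 2 as the only tumour it was -0.44 and -0.43, and neither was called.

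Ddit3, or Chop, is a transcription factor of prolonged stress. It was 7.55, 7.89, 7.27 and 7.80 in tumours, against 8.37, 7.60 and 7.30 in the epithelial line and 9.79, 10.26, 9.68 and 9.81 in the fibroblastic line. Tumours and the epithelial line overlapped (-0.13, adjusted p 0.695), and both lay far below the fibroblastic line, tumours by 4.77-fold (-2.25 ± 0.24, adjusted p 1.85e-05). Atf5, a transcription factor related to Atf4, was 9.86, 8.60, 9.01 and 9.38 in tumours, against 7.61, 9.14 and 6.76 in the epithelial line and values between 10.22 and 11.16 in the fibroblastic line. The tumours lay between the lines, 2.82-fold below the fibroblastic line (adjusted p 0.0164) and 2.60-fold above the epithelial line (adjusted p 0.0391). The last call ended without tumour 1, 3 or 4, epithelial replicate 1 or epithelial replicate 3, with adjusted p up to 0.165.

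Sesn2, a sensor of leucine and inhibitor of mTORC1, was 8.06, 8.03, 7.98 and 8.07 in tumours, against 9.40, 8.83 and 8.73 in the epithelial line and 9.60, 9.66, 10.03 and 9.75 in the fibroblastic line. The 3 groups were apart, with tumours 1.93-fold below the epithelial line (adjusted p 0.00106) and 3.30-fold below the fibroblastic line (adjusted p 6.07e-06). Ppp1r15a, or Gadd34, which helps reverse the phosphorylation of eIF2-alpha, was 7.40, 7.96, 7.89 and 7.74 in tumours, against 9.06, 8.55 and 10.80 in the epithelial line and 8.90, 9.60, 8.94 and 9.62 in the fibroblastic line. It was 3.31-fold lower than in the epithelial line (adjusted p 0.0084) and 2.86-fold lower than in the fibroblastic line (adjusted p 0.00874), with no overlap.

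Chac1, which breaks down glutathione, was 7.95, 7.40, 7.43 and 7.33 in tumours, against 9.15, 8.33 and 7.01 in the epithelial line and 9.40, 8.48, 10.70 and 8.35 in the fibroblastic line. It was called lower against the fibroblastic line (3.27-fold, adjusted p 0.019) and not against the epithelial line (-0.64, adjusted p 0.384), where replicate 3 lay below all tumours. Trib3, a pseudokinase that restrains Atf4, was 7.45 to 7.84 in tumours, against 6.98 to 8.92 in epithelial arrays and 7.89 to 9.85 in fibroblastic arrays, and Atf3, an early stress factor, was 7.45 to 7.90, against 7.87 to 12.06 and 7.27 to 11.22. Neither was called, apart from Trib3 against the fibroblastic line without fibroblastic replicate 2 or epithelial replicate 3, at adjusted p down to 0.0327. Chac1 and Trib3 were the Atf4-type promoters with the Atf4 core, 2 of 16, against 4.16% of all genes. The Chac1 promoter is printed beside that of Hspa5 for contrast, at chr3:126795881-126796130 on the plus strand of GRCr8, with the core in capitals, running against the gene.

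Chac1: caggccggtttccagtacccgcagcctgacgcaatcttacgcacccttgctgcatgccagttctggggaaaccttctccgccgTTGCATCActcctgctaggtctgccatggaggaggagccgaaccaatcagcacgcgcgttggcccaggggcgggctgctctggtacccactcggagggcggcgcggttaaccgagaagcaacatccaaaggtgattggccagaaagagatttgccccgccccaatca

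Phgdh and Psat1 catalyse successive steps of serine synthesis from a glycolytic intermediate. Phgdh was 8.33, 8.26, 9.20 and 8.37 in tumours, against 9.97 to 10.74 in the epithelial line and 9.83, 8.18, 10.44 and 8.55 in the fibroblastic line. It was 3.24-fold lower than in the epithelial line (-1.69 ± 0.50, adjusted p 0.0157; 0.0667 without epithelial replicate 1), and the fibroblastic arrays straddled the tumours. Psat1 was 9.73, 10.03, 10.87 and 9.44 in tumours, against 11.80, 11.81 and 11.08 in the epithelial line and 10.23, 8.54, 11.12 and 9.29 in the fibroblastic line. It was 2.91-fold lower than in the epithelial line (adjusted p 0.0358; up to 0.104 and no longer called when tumour 1, 2 or 4 or epithelial replicate 1 or 2 was left out).

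Asns, which makes asparagine, was 8.99, 9.42, 10.18 and 8.92 in tumours, against 10.74, 10.80 and 9.57 in the epithelial line and 10.82, 9.50, 10.92 and 9.88 in the fibroblastic line. Tumour 3 overlapped both lines, and neither difference was called (1.99-fold below, adjusted p 0.0828, and 1.87-fold below, adjusted p 0.079). Without tumour 3 or epithelial replicate 3 the first was called, with adjusted p down to 0.0295, and without tumour 3 or fibroblastic replicate 2 so was the second, down to 0.0338. Shmt2, the mitochondrial enzyme that turns serine into glycine, was 9.09 to 9.88 in tumours, 9.17 to 10.06 in epithelial arrays and 8.27 to 9.53 in fibroblastic arrays, and was called in neither comparison, although leaving out tumour 2, epithelial replicate 1 or fibroblastic replicate 1 or 3 gave a call against the fibroblastic line, with adjusted p down to 0.0193.

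Slc7a5 and Slc3a2 are the light and heavy chains of the LAT1 leucine transporter. Slc7a5 was 6.77, 6.77, 6.78 and 6.75 in tumours, against 8.86, 9.38 and 8.24 in the epithelial line and 9.75, 7.55, 9.80 and 7.82 in the fibroblastic line. All cultures exceeded all tumours, which lay below the epithelial line (-2.06 ± 0.54, adjusted p 0.00884) and the fibroblastic line (-1.96 ± 0.50, adjusted p 0.00597). The tumour values of Slc7a5 had an SD of 0.014, against a median SD of 0.176 over all genes in tumours. They are not shown to be above background, so no fold is given against them. Slc3a2 was 10.22, 10.32, 10.60 and 10.18 in tumours, against 10.33, 10.63 and 10.18 in the epithelial line and 11.31, 11.35, 11.57 and 11.58 in the fibroblastic line. The tumours overlapped the epithelial line and were 2.17-fold below the fibroblastic line (adjusted p 6.42e-05).

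Slc7a11, the cystine importer, was 7.52, 8.00, 8.60 and 7.34 in tumours, against 7.56, 9.79 and 8.95 in the epithelial line and 6.68, 6.87, 7.08 and 7.12 in the fibroblastic line. All tumours lay above the fibroblastic line, but neither difference was called (-0.90, adjusted p 0.119, against the epithelial line, and 0.92, adjusted p 0.0789, against the fibroblastic line). Without epithelial replicate 1 the first was called, at adjusted p 0.00799, and without epithelial replicate 1 or 2 so was the second, at adjusted p down to 0.0187.

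Gdf15, a secreted stress factor that acts on appetite, was 5.85, 6.17, 6.13 and 5.76 in tumours, against 10.14, 10.12 and 11.02 in the epithelial line and 5.53, 5.85, 5.43 and 5.60 in the fibroblastic line. The tumours were not called against the fibroblastic line (0.38, adjusted p 0.135; 0.0365 without epithelial replicate 3) and were below the epithelial line (-4.45 ± 0.22, adjusted p 2.01e-07), which was the lowest difference of all 14217 genes in that comparison. Vldlr, a lipoprotein receptor and Atf4 target, was 8.07, 8.08, 7.79 and 8.21 in tumours, against 4.10, 4.10 and 4.04 in the epithelial line and 12.16, 10.19, 12.13 and 9.97 in the fibroblastic line. The tumours lay between, above the epithelial line (3.95 ± 0.50, adjusted p 0.000141) and 8.44-fold below the fibroblastic line (adjusted p 0.000226). The epithelial Vldlr values were no higher than those of Krt19 in fibroblasts, 4.01 to 4.29, so they are not shown to be above background and no fold is given against them; nor is one given for Gdf15, whose low values also have no known floor. The mixture of cell types differed between tumours and lines, and its part in both genes was not tested.

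**Figure D5:**
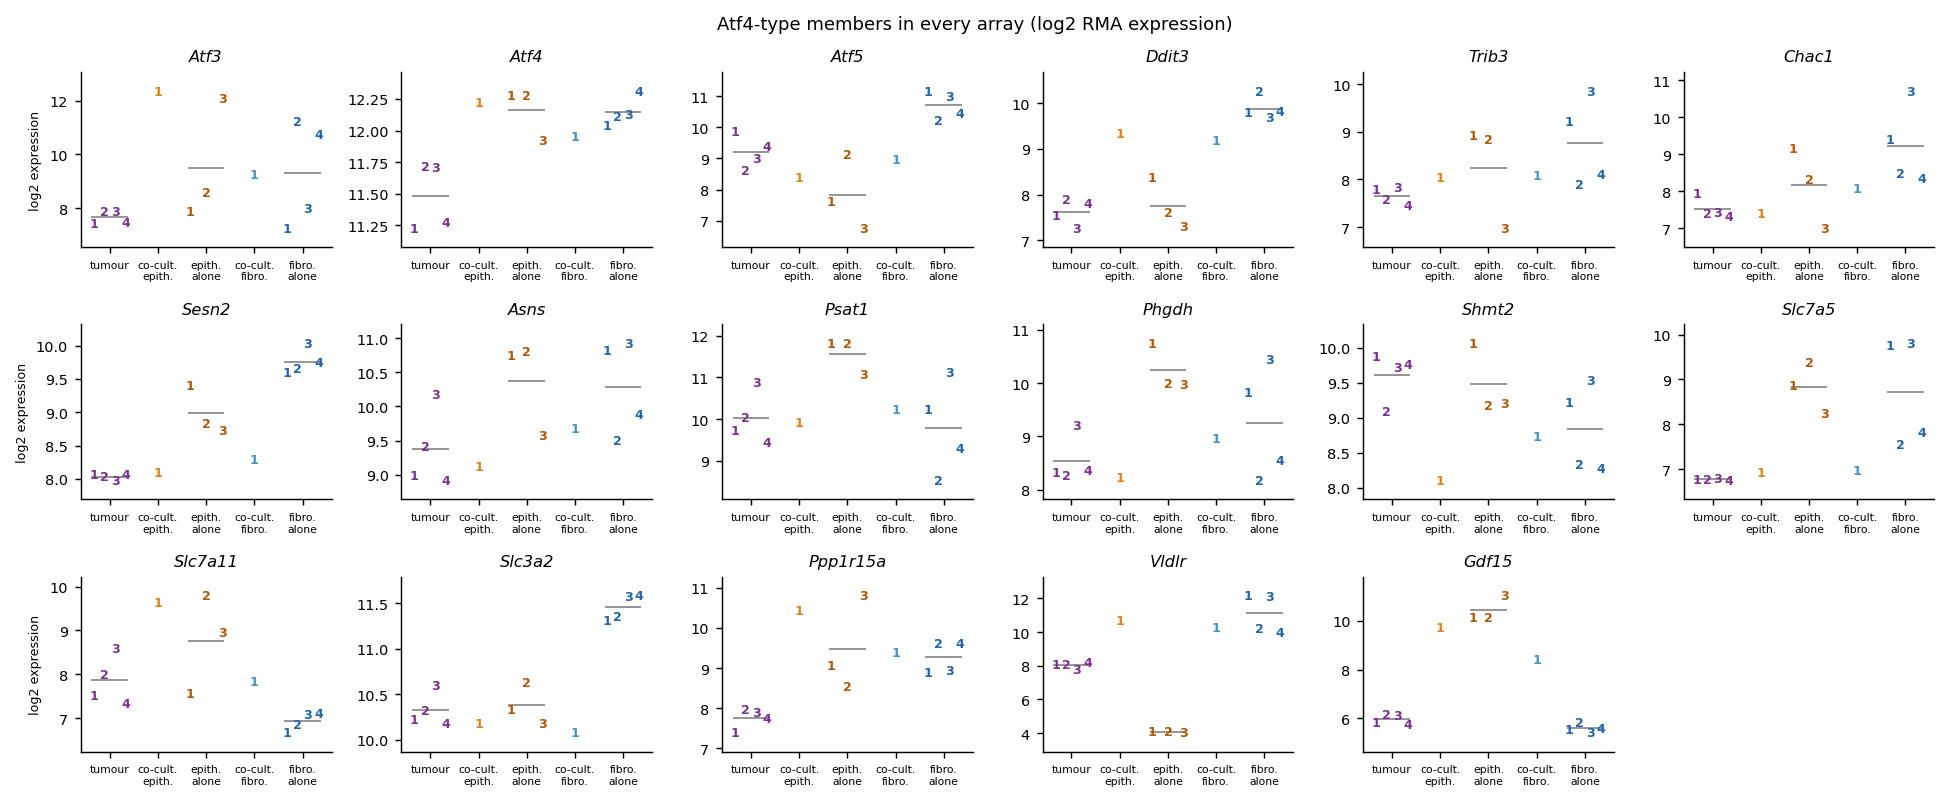
Log2 expression of the 17 Atf4-type members in each array, each panel on its own vertical scale. Numerals are replicate numbers at their values and grey lines are group means; Slc7a5 is flat at 6.75 to 6.78 in tumours, Vldlr at 4.04 to 4.10 in the epithelial line, and fibroblastic arrays 1 and 3 sit above arrays 2 and 4 for Phgdh, Psat1, Slc7a5, Asns and Trib3.

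Between the lines grown alone, the epithelial line was lower for more members than it was higher. In the epithelial line 3 members were higher and 13 lower than in the fibroblastic line, where 20.9% of all genes were called higher and 16.6% lower. The lower ones were 5 folding genes, 3 genes of regulation and degradation, and 5 Atf4-type genes. No folding gene was called higher, and the class median was -0.32, against 0.11 over all genes. Without epithelial replicate 3, 1 member was higher and 7 were lower.

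Among the folding genes, Hspa5 was 1.60-fold lower in the epithelial line (adjusted p 0.00652), Dnajb11 2.43-fold (adjusted p 0.00861) and Dnajc3 2.53-fold (adjusted p 0.0156). Hsp90b1 and Calr were 1.48-fold and 1.49-fold lower (adjusted p 0.0213 and 0.0433). Herpud1 was 1.70-fold lower (adjusted p 0.015), with Sel1l at 1.64-fold (adjusted p 0.0432) and Edem1 at 1.45-fold (adjusted p 0.0226). For Edem1 the mean of its probe sets had the opposite sign. All of these differences were small, and single arrays ended several of the calls. Omitting 4 of the 7 arrays in turn ended those of Hsp90b1 and Edem1, and 6 of 7 those of Calr and Sel1l, with adjusted p up to 0.124; Dnajc3 reached 0.0608 without epithelial replicate 3, and Herpud1 up to 0.0522 without epithelial replicate 1 or 3. Dnajb9, 1.79-fold lower, was not called (adjusted p 0.052), and without epithelial replicate 3 or fibroblastic replicate 1 or 3 it was, at adjusted p down to 0.0332.

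Among the Atf4-type genes, Atf5 was 7.33-fold lower (adjusted p 0.00344), Ddit3 4.36-fold lower (adjusted p 0.000561), Slc3a2 2.10-fold lower (adjusted p 0.00136) and Sesn2 1.71-fold lower (adjusted p 0.0179; up to 0.0663 without epithelial replicate 2 or 3) in the epithelial line. Vldlr differed most of the members (-7.03 ± 0.57, adjusted p 4.24e-05), and its 4 probe sets had the same sign. Gdf15 was higher in the epithelial line (4.83 ± 0.24, adjusted p 2.73e-06). Slc7a11 was higher by 1.83 (adjusted p 0.0152) and Psat1 by 1.76 (adjusted p 0.0404), and these calls ended at adjusted p 0.0551 without epithelial replicate 3 for Slc7a11, and at up to 0.117 without any array but fibroblastic replicate 3 for Psat1. Atf4 transcript did not differ detectably (0.02 ± 0.15, interval -0.33 to 0.36). Nor were Asns, Slc7a5, Ppp1r15a or Atf3 called, each with an SE of 0.44 or more. Phgdh, 1.98-fold higher, was called when fibroblastic replicate 3 was left out (adjusted p 0.0464, against 0.19 with all arrays).

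That wide spread had a pattern over the arrays. Atf3 was 7.87, 8.57 and 12.06 in epithelial arrays 1 to 3 and 7.27, 11.22, 7.99 and 10.74 in fibroblastic arrays 1 to 4. Ppp1r15a was highest in the same arrays of each line, at 10.80 in epithelial array 3 and at 9.60 and 9.62 in fibroblastic arrays 2 and 4. In these arrays several amino acid genes were the lowest of their line: Slc7a5 was 8.24 in epithelial array 3 against 8.86 and 9.38 in the others, and 7.55 and 7.82 in fibroblastic arrays 2 and 4 against 9.75 and 9.80 in arrays 1 and 3. Psat1, Asns and Trib3 were likewise lowest in these arrays of both lines.

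Phgdh followed it in the fibroblastic line, at 8.18 and 8.55 against 9.83 and 10.44, while in the epithelial line array 3, at 9.97, was the lowest by a margin within the spread. Vldlr was also lower in fibroblastic arrays 2 and 4, at 10.19 and 9.97 against 12.16 and 12.13. The split in that line was not particular to amino acid genes. Dnajb11 (9.74 and 9.73 against 10.60 and 10.46), Dnajc3 (9.43 and 9.15 against 10.30 and 10.27), Sdf2l1 (7.82 and 7.90 against 8.88 and 8.76), Sel1l (7.49 and 7.69 against 8.14 and 8.37) and the marker Acta2 (9.29 and 10.29 against 12.13 and 12.04) had it too. Ddit3 and Atf4 did not show the split. The actin 3′ minus 5′ signal was highest in fibroblastic arrays 2 and 4, at 2.65 and 2.01, while epithelial array 3 had the lowest of its line, at 0.86; its part in the split was not tested.

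In co-culture the design gave 1 array for each label, so a difference was tested on the assumption that the single array varied like the replicated groups. In the array labelled epithelial, 1 member was called higher and 0 lower than in the epithelial line alone, where 4.87% of all genes were called higher and 2.37% lower. In the array labelled fibroblastic, 1 was higher and 2 were lower than in the fibroblastic line alone, where 4.78% were called higher and 3.63% lower. Over all 35 members the median difference was -0.06 in the first array and -0.15 in the second, against -0.09 and 0.03 over all genes. With fibroblastic arrays 2 and 4 left out, Sdf2l1, Phgdh and Slc7a5 were called lower in the first. In the second, Dnajb11, Dnajc3, Slc7a5 and Vldlr were then added to Sesn2 and Slc3a2. The arrays left out held the lowest fibroblastic values of all these added genes. Leaving them out raised the fibroblastic mean and narrowed the spread used in both tests, so nothing is read from the added calls. Vldlr in the array labelled fibroblastic, at 10.29, lay above both arrays left out, at 10.19 and 9.97.

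The member called in the first was Vldlr, at 10.71 in the co-culture array, against 4.10, 4.10 and 4.04 alone (6.63 ± 0.87, adjusted p 0.00309). The fibroblastic markers, near 6 in the epithelial line alone, stood at 11.83 in this array, and the Vldlr value lay inside the fibroblastic range. In the second, Gdf15 was 8.41, against 5.53, 5.85, 5.43 and 5.60 in fibroblasts alone (2.81 ± 0.36, adjusted p 0.00271), and the epithelial markers stood at 12.68. Both genes thus moved toward the level of the partner line in an array that also carried the markers of that line, and a change within either cell type cannot be told apart from the mixture of lines.

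A mixture of the lines as they are alone would place a gene between them, so each co-culture array was also set against the full range of the 7 arrays of both lines. The array labelled epithelial lay above that range for 2 members and below it for 10, where 10.2% of all genes lay above and 15.2% below. The array labelled fibroblastic lay above for 4 and below for 4, where 9.15% of all genes lay above and 12.4% below. The 4 members below the range in both arrays were Hyou1, Sesn2, Slc7a5 and Slc3a2, and Xbp1 was above it in both. Over all genes 8.85% lay below in both arrays and 5.8% above in both, and nothing is read from the members' counts beyond that.

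Sesn2 was 8.10 and 8.29 in the epithelial and fibroblastic co-culture arrays, against a lowest value alone of 8.73. Slc7a5 was 6.92 and 6.97, against a lowest value alone of 7.55, and so came close to the tumours at 6.75 to 6.78, values with no known floor. Slc3a2 was 10.18 and 10.08, at or under its lowest value alone, 10.18 when rounded. Against the fibroblastic line alone, Sesn2 was 2.77-fold lower (adjusted p 0.0212) and Slc3a2 2.59-fold lower (adjusted p 0.0107) in the co-culture array labelled fibroblastic. Slc7a5 was not called in either comparison with all arrays. Xbp1, at 11.20 and 11.17 against a highest value alone of 11.16, exceeded the range by less than the spread between arrays.

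The co-culture array labelled epithelial was also below both lines for Sdf2l1, Dnajb11, Creld2, Manf, Asns and Shmt2, and above them for Atf3. Sdf2l1 was 7.20 there and 8.25 in the other co-culture array, against 7.82 to 9.02 in the lines alone and 9.90 to 10.20 in tumours. Atf3 was 12.34, against 12.06 in the highest culture alone. The array labelled fibroblastic was above both lines for Hsp90b1, Canx and Pdia6, at 12.74, 11.26 and 11.92. Hspa5 did not follow either course, at 10.60 and 11.37, each inside the range of its own line alone. Ddit3 was 9.33 in the array labelled epithelial, against 8.37, 7.60 and 7.30 alone, a difference of 1.57 that was not called (adjusted p 0.0622; 0.0168 without epithelial replicate 1).

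Other genes of these pathways were described from lists of the same arms. Of 26 other folding genes of the endoplasmic reticulum, 10 were higher and 2 lower in tumours than in the epithelial line, and 2 were higher and 13 lower than in the fibroblastic line. Over all genes the shares were 18.9% higher and 33.2% lower, and 27.3% higher and 33.5% lower. Serpinh1, the collagen chaperone, was 10.96 to 11.27 in tumours, against 4.32 to 4.88 in the epithelial line (adjusted p 2.06e-08), and Fkbp9, a prolyl isomerase, was 7.39-fold above it and 5.68-fold below the fibroblastic line. Between the lines alone 1 of these genes was higher and 17 were lower in the epithelial line, beside 20.9% higher and 16.6% lower over all genes. Fibroblastic markers ran the same way, at 11.83 to 12.28 in tumours, and their part was not tested.

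Of 17 aminoacyl-tRNA synthetases, which load tRNAs with amino acids and include Atf4 targets, 1 was higher and 10 were lower in tumours than in the epithelial line, with a median difference of -0.58 against -0.17 over all genes, of which 18.9% were higher and 33.2% lower. Vars1 was 2.51-fold lower (adjusted p 0.0029) and Iars1 2.11-fold lower (adjusted p 0.0144), while Hars1 was higher by 1.70 (adjusted p 0.00233). The epithelial mean of Hars1, 5.77, lay under the lowest array median, 6.14. It is not shown to be above background, so no fold is given against it. Against the fibroblastic line 2 were higher and 4 lower, beside 27.3% and 33.5% of all genes. Of 12 other amino acid transporters, 2 were higher and 3 lower than in the epithelial line, and 1 was higher and 4 lower than in the fibroblastic line, with Slc1a4 5.09-fold and Slc38a2 4.50-fold below the fibroblastic line.

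Of 15 stress sensors and activators, 3 were higher and 6 lower in tumours than in the epithelial line, and 1 was higher and 9 lower than in the fibroblastic line. The counts against the epithelial line were near the shares over all genes, 18.9% higher and 33.2% lower, and those against the fibroblastic line stood beside 27.3% higher and 33.5% lower. Eif2ak4, which encodes the amino acid sensor Gcn2, was 4.09-fold lower than in the epithelial line (adjusted p 0.000141) and 2.96-fold lower than in the fibroblastic line (adjusted p 0.000246). Ppp1r15b, the constitutive partner of the phosphatase that acts on eIF2-alpha, was 3.13-fold and 3.38-fold lower. Creb3l3, a factor made mainly in liver and gut, was 9.96, 7.43, 8.11 and 9.97 in tumours, of which 1, 3 and 4 carried high hepatocyte markers, and was called higher against both lines (adjusted p 0.00278 and 0.000532).

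Of 16 degradation genes, 1 was higher and 8 lower than in the epithelial line and 2 were higher and 9 lower than in the fibroblastic line. Over all genes 18.9% were higher and 33.2% lower in the first comparison and 27.3% and 33.5% in the second, which also bears on the counts that follow. Os9, a lectin of the degradation pathway, was higher in both, at 2.35-fold (adjusted p 4.82e-05) and 1.86-fold (adjusted p 0.000108), and Edem2 was higher against the fibroblastic line, at 1.65-fold (adjusted p 0.00068). Of 15 translocation genes, 2 were higher and 0 lower than in the epithelial line, with 10 of 15 differences positive, and 1 was higher and 5 lower than in the fibroblastic line. Of 15 other amino acid enzymes, 2 were higher and 3 lower, and 3 were higher and 4 lower; of 18 further Atf4-linked genes, 3 were higher and 3 lower, and 2 were higher and 8 lower.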

How the data were processed

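Total RNA was extracted with Trizol and hybridized as biotin-labelled cRNA to Affymetrix rat arrays, per the labels' protocols. The authors deposited log2 expression values made by RMA, per the submitters' processing notes. Neither the RMA version nor which arrays it took together is given in the sources used here. Values from 2.94 to 14.69 showed the log2 scale. Array medians were 6.14 to 6.25, and nothing was normalized again. The number of arrays limits the precision. No detection calls were used, so low values have no stated floor.

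Of 31099 probe sets, 20826 named a single gene, giving 14217 genes, with symbols updated through RefSeq. The 35 members had 47 probe sets. The members and all gene lists were chosen with earlier results of these data known. All members are named; of other pathway genes, up to 2 called genes per list, comparison and direction, those with the largest difference, could be named.

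Testing used limma 3.58.1 under R 4.3.3 (lmFit and eBayes, two-sided), adjusted by Benjamini and Hochberg over all genes. A fit of 9 arrays held the lines and co-cultures, and a fit of 11 arrays the tumours and lines. Tested on simulated data with 100 genes changed by 2-fold, 64 were recovered for tumours against the epithelial line, 61 against the fibroblastic line, 40 between lines and 8 in each co-culture comparison. Alternatives covered centring, quantile normalization, a filter, moderation, probe sets, the fit, a replicate block and omitted arrays. Promoters are from RefSeq, build GRCr8. Promoters of 5 members were not used here. Tables and plots used Python 3.11.15, pandas 2.3.3 and matplotlib 3.10.9.

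Correlations of the deviations of arrays of different groups were over 0.1 for 3 of 10 pairs with the same number. For pairs with different numbers this held for 3 of 30. The medians were 0.025 and -0.005. So few pairs cannot decide whether arrays of the same number belong together. The numbers were not used to pair arrays in the main fits, and a replicate block was run as an alternative.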

Additional observations from a re-analysis of the deposited data

Results flagged for a closer look

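For 5 member genes an array stood apart from the other 3 of its group by Dixon's test, among 70 groups of 4 examined; chance flags about 1 in 20 groups. Pdia3 was low in fibroblastic array 4, at 9.50, with a gap of 0.38. Pdia4 was high in fibroblastic array 2, at 11.29, with a gap of 0.19. Sdf2l1 was low in tumour 3, at 9.90, with a gap of 0.25. Chac1 was high in tumour 1, at 7.95, with a gap of 0.52. Phgdh was high in tumour 3, at 9.20, with a gap of 0.83.

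The change from each line alone to its co-culture array was compared between the labels, and Vldlr and Gdf15 were flagged. For Vldlr the epithelial change minus the fibroblastic change was 7.45 in the limma interaction. For Gdf15 it was -3.52. Both values rest on 1 co-culture array per label, and both arrays carried markers of both lines. The lines alone differed by -7.03 for Vldlr and 4.83 for Gdf15, epithelial minus fibroblastic. Where both arrays hold both lines, such a difference between the lines can give these values by itself. A differing response of the cells cannot be told apart from the mixture.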

How the results depend on the processing

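Results refer to members unless genes are named. Calls that held in each alternative numbered 7 of 16 between lines, 6 of 20 and 8 of 17 for tumours against the epithelial and fibroblastic line, and 1 of 1, 2 of 3 and 2 of 2 for the co-cultures and their difference. The mean of all probe sets of a gene reversed Pdia3 and Edem1 between the lines, to -0.54 and 0.02 (0.015), and Edem1 in tumours against the fibroblastic line, to 0.50. With the replicate block, 7 were lower in the epithelial line, and whether the replicate numbers pair arrays was not settled. With fibroblastic arrays 2 and 4 left out, 1 was higher between lines, and 3 and 6 were lower in the epithelial and fibroblastic co-culture arrays. With tumour 2 as the only tumour, fewer samples entered: 5 were higher and 1 lower against the epithelial line (917 and 1041 genes), and 5 were lower against the fibroblastic line (1662 genes higher, 2250 lower). Without the dimmest genes, 1302 and 1827 genes were higher in tumours. Centring gave 10 higher against the fibroblastic line, and 2 higher in the epithelial co-culture and in the difference of responses, as did quantile normalization. The filter and trend settings also gave 2 higher in that difference. A single fit of 13 arrays gave 2 higher and 1 lower (820 genes) in the epithelial co-culture, and 3 higher (839 genes lower) in the difference. The mean of probe sets left 1 lower in the fibroblastic co-culture. Omitting an array in turn gave 1 to 4 higher and 7 to 12 lower between lines, the lowest without epithelial replicate 3, 162 to 321 genes lower with 1 to 2 members higher in the epithelial co-culture, and 1 to 2 higher in the difference. The cause of these changes was not tested.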
